A study of Mus musculus with 8 samples.

Results

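The 10 genes described here are S100a8, S100a9, Chil3, Cxcl1, Cxcl2, Cxcl5, Cxcl12, Cxcl16, Cxcr2 and Csf3r, chosen by name as neutrophil genes and CXC chemokines from 20151 genes with a named probe. They were measured by 11 of 55681 probes, Cxcl12 by 2 and each of the others by 1. RNA of 8 hepatocellular carcinomas (HCC) from male mice labelled miR-122 KO was hybridised in Cy5, and liver RNA of age-matched males labelled miR-122 floxed in Cy3, on 8 Agilent arrays with 2 colours, all on 1 slide. Both groups had a mixed C57BL/6J and 129S/Svj background. The mouse ages, the cells in which miR-122 was deleted and any pooling of animals are not given in the labels. The titles number the tumors without naming an animal, so p-values measure the spread between the ratios of these 8 arrays, which includes that of the control livers. No array had its dyes swapped, so the dye and the group cannot be told apart.

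Neutrophils are short-lived white blood cells that enter tissue along gradients of CXC chemokines. Cxcl1, Cxcl2 and Cxcl5 signal through the receptor Cxcr2, while Csf3r, the receptor of granulocyte colony-stimulating factor, drives neutrophil production and survival. Cxcl12 and Cxcl16 belong to the same chemokine family but act mainly through Cxcr4 and Cxcr6. S100a8 and S100a9 form calprotectin, a calcium- and zinc-binding complex abundant in neutrophil cytosol, and Chil3 (Ym1) is a chitinase-like protein made by mouse neutrophils, their precursors and some macrophages.

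The start regions of the calprotectin pair and of a pair of attractants, Cxcl1 and Cxcl2, are shown first. Each is the RefSeq window from 250 bases before to 50 bases after the annotated start, 5′ to 3′ on the coding strand, in build GRCm38.p6. Windows were found for 8 of the 10 genes; Cxcl5 and Cxcl16 had no entry. Capitals mark letters that match a kappa-B form (GGGA, any 2 bases, then TTCC) on either strand, TTGCNNAA (a C/EBP form) on either strand, or TATAAA on the coding strand. S100a8 lies at chr3:90668821-90669120 on the plus strand, S100a9 at chr3:90695672-90695971 on the minus strand, Cxcl1 at chr5:90890995-90891294 on the plus strand and Cxcl2 at chr5:90903649-90903948 on the plus strand.
S100a8: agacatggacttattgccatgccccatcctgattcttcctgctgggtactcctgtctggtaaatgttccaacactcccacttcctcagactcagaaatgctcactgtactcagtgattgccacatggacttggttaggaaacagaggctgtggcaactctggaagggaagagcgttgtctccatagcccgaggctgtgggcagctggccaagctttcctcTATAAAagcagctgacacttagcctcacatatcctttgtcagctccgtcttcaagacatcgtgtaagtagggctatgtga
S100a9: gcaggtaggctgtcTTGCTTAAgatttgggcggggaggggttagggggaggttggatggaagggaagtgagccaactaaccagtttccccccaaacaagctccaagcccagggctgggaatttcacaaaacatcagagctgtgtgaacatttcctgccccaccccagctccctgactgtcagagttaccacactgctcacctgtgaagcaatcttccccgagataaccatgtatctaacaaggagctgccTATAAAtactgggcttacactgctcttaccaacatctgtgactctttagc
Cxcl1: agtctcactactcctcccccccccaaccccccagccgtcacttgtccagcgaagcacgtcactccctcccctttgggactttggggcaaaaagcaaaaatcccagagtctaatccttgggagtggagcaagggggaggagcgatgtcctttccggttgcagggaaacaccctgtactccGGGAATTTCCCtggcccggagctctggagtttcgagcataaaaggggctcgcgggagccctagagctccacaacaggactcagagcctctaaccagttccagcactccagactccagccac
Cxcl2: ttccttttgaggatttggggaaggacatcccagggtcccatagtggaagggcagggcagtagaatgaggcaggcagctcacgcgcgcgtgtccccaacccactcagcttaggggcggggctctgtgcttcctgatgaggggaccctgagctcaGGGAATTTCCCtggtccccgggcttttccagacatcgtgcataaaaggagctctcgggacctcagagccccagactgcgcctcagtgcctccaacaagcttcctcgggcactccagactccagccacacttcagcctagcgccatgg
Cxcl1 and Cxcl2 held the same run, GGGAATTTCCC, in which the matches on both strands overlap. It began 71 bases before the start of Cxcl1 and 97 bases before that of Cxcl2. Csf3r held a match on the opposite strand only (GGAAGGTCCC, 129 bases before its start), so 3 of 8 windows held the kappa-B form, against 1.47% of 32851 windows of the same length. The C/EBP form was found in 1 of 8 windows, that of S100a9, against 10.8% of all windows. TATAAA was found in 3 of 8 windows, against 8.32% of all. It began 30 bases before the annotated start in S100a8, 3 bases before it in Chil3 and at the start itself in S100a9. These matches are letters in a window and were not tested for binding.

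The arrays differed in signal. Between 38.5% and 51.9% of probes were well above background in HCC and between 45.1% and 54.3% in control liver, and 0 spots were saturated. The tumor of array 8 had the weakest signal: its spots had an upper quartile of 213 Cy5 intensity units, against 378 to 606 in the other tumors. Skeletal muscle genes had a summed log2 level of 12.28 in the tumor of array 8, against 10.27 to 10.62 in the other tumors, and of 16.13 in its control liver, against 10.27 to 10.64 in the other control livers.

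Of the 10 genes, 6 were higher in HCC by limma at an adjusted p under 0.05 and a difference of at least 2-fold, the rule for a call used throughout. Over all 14313 genes tested, 9.54% were called higher and 5.94% lower (15.5% in either direction), and the median log2 ratio of HCC over control liver was 0.03. The called genes were S100a8, S100a9, Chil3, Cxcl5, Cxcl16 and Cxcr2. The count was also 6 without array 8 and without arrays 7 and 8 together. Cxcl2 and Csf3r were higher by less than 2-fold, and Cxcl1 and Cxcl12 did not pass the test. All 10 passed the filter on dim probes, Cxcl2 and Cxcl5 through the HCC channel, which was well above background on 5 and 7 arrays. In bulk tissue, more cells of a type and more RNA per cell cannot be told apart.

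**Figure D1:**
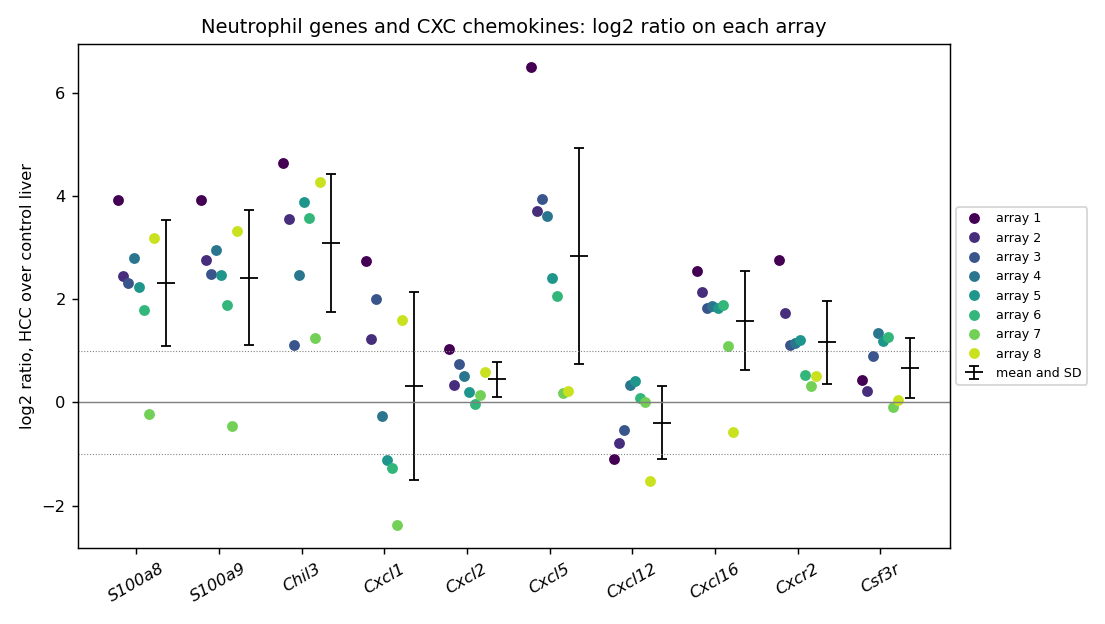
The log2 ratio of HCC over control liver (vertical axis) is plotted for each of the 10 genes (horizontal axis), with 1 coloured point per array, the mean and SD over 8 arrays in black, and dotted lines at a difference of 2-fold. S100a8 and S100a9 lay below 0 on array 7 alone, Cxcl16 lay below 0 on array 8 alone, and Cxcl1 spanned -2.38 to 2.74.

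The calprotectin genes S100a8 and S100a9 rose in HCC, by 4.96-fold and 5.36-fold. For S100a8, normalized log2 intensity was 9.84 at the lowest, 11.44 at the median and 13.12 at the highest in HCC, against 8.37, 9.17 and 10.07 in control liver. For S100a9 it was 11.76, 13.52 and 14.55 in HCC, against 10.34, 11.03 and 12.21 in control liver. Array 7 carried both the lowest HCC value and the highest control value of each gene, and on the other arrays the groups did not overlap for either gene. The log2 ratio was 2.31 ± 1.22 for S100a8 (SD, n = 8, adjusted p = 0.000693) and 2.42 ± 1.31 for S100a9 (SD, n = 8, adjusted p = 0.000797). Both were higher in HCC on 7 of 8 arrays, with -0.23 and -0.45 on array 7. Leaving out array 7 gave 2.67 for S100a8 and 2.83 for S100a9.

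Chil3 rose 8.56-fold in HCC. Its normalized log2 intensity ran from 8.52 through a median of 10.79 to 12.43 in HCC, against 6.48, 7.30 and 7.88 in control liver. No control liver reached the level of any tumor, a pattern shown by 2 of the 10 genes (Chil3 and Cxcr2) and by 8.32% of all genes. The reverse, every tumor below every control liver, was shown by 0 of the 10 and by 8.47% of all genes. The log2 ratio was 3.10 ± 1.34 (SD, n = 8, adjusted p = 0.000216) and ranged from 1.12 on array 3 to 4.64 on array 1. Chil4, a close paralog of Chil3, was well above background in 1 tumor and 0 control livers and was not tested. Cross-hybridisation between the pair was not tested.

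Among the Cxcr2 ligands, Cxcl5, made by epithelial cells in inflamed tissue, rose 7.13-fold in HCC. Its normalized log2 intensity was 6.28 at the lowest, 9.33 at the median and 12.60 at the highest in HCC, against 6.06, 6.27 and 6.79 in control liver. It was well above background in 7 tumors and 3 control livers. The log2 ratio was 2.83 ± 2.09 (SD, n = 8, adjusted p = 0.00423), from 6.50 on array 1 to 0.19 on array 7 and 0.22 on array 8. Without arrays 7 and 8 the ratio was 3.71, and with the deposited processed signals of all 8 arrays it was 4.78. Among all genes, 0.363% had a larger SD than Cxcl5 in the HCC channel.

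Cxcl1 did not differ between HCC and control liver beyond the spread of the arrays. Normalized log2 intensity was 10.23 at the lowest, 11.75 at the median and 12.66 at the highest in HCC, against 8.64, 11.45 and 13.74 in control liver, so the HCC values lay inside the control range. The log2 ratio was 0.32 ± 1.83 (SD, n = 8, adjusted p = 0.649), with a 95% confidence interval of -0.92 to 1.55. It was above 0 on arrays 1, 2, 3 and 8 and below 0 on the other four. The control livers differed most: 12.42, 13.74, 12.63 and 13.08 on arrays 4 to 7, against 9.92, 9.91 and 10.48 on arrays 1 to 3 and 8.64 on array 8. The SD of Cxcl1 was 0.94 over tumors and 1.84 over control livers, and 21 of 14313 genes had a larger SD over control livers, where the median gene had 0.19. Without array 1 the mean ratio turned to -0.03 (adjusted p = 0.971).

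Cxcl2, which shares its receptor with Cxcl1, was dim. It was well above background in 5 tumors and 1 control liver. Normalized log2 intensity was 6.30 at the lowest, 6.66 at the median and 7.29 at the highest in HCC, against 6.20, 6.25 and 6.50 in control liver, and the ranges overlapped. The log2 ratio of 0.45 ± 0.35 (SD, n = 8, adjusted p = 0.0116) was above 0 on 7 of 8 arrays but under the 2-fold difference a call requires. With the deposited processed signals, which differ in background and dye normalization, the ratio was 1.68 (adjusted p = 0.00418) and was called.

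The chemokines of other receptors gave 1 rise and 1 gene without a passing test. Cxcl16, a membrane-bound chemokine that is cut loose by Adam10, rose 2.99-fold. Its normalized log2 intensity was 8.12 at the lowest, 10.59 at the median and 11.24 at the highest in HCC, against 8.54, 8.69 and 9.19 in control liver. The tumor of array 8, at 8.12, lay below the control range, and the other tumors were at 10.24 or more. The log2 ratio was 1.58 ± 0.96 (SD, n = 8, adjusted p = 0.00162), with -0.57 on array 8, and 1.89 without array 8 (adjusted p = 2.09e-05).

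Cxcl12, which holds neutrophils and their precursors in the bone marrow through Cxcr4, was measured by 2 probes whose mean ratios had opposite signs. The brighter probe gave -0.39 ± 0.71 (SD, n = 8, adjusted p = 0.166) and the other 0.30 ± 0.97 (adjusted p = 0.437 in a fit of all probes). By the brighter probe, normalized log2 intensity was 12.38 at the lowest, 14.09 at the median and 14.80 at the highest in HCC, against 13.91, 14.15 and 14.72 in control liver. Both probes had their lowest HCC value on array 8. The 95% confidence interval of the brighter probe ran from -0.88 to 0.11, so neither direction was shown, and without array 8 it gave -0.22 (adjusted p = 0.346).

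Of the receptors, Cxcr2 rose 2.25-fold in HCC. Normalized log2 intensity was 6.78 at the lowest, 7.68 at the median and 9.49 at the highest in HCC, against 6.27, 6.63 and 6.72 in control liver, with no overlap. The log2 ratio of 1.17 ± 0.80 (SD, n = 8, adjusted p = 0.00328) was above 0 on all 8 arrays, from 0.31 on array 7 to 2.77 on array 1. The mean lay near the 2-fold limit: it fell under the limit without array 1 (0.94, adjusted p = 0.00264), and with the deposited processed signals it was 2.32. Csf3r differed less, at 0.66 ± 0.59 (SD, n = 8, adjusted p = 0.0134) or 1.58-fold. Its normalized log2 intensity was 14.17 at the lowest, 14.69 at the median and 15.03 at the highest in HCC, against 13.53, 14.12 and 14.33 in control liver, and the tumors of arrays 7 and 8 lay within the control range. The control median of Csf3r was far above those of Cxcr2 (6.63), S100a8 (9.17) and S100a9 (11.03). Which cells gave the Csf3r signal was not tested. Ratios of the same sign on all 8 arrays were seen for 3 of the 10 genes (Chil3, Cxcl5 and Cxcr2) and for 33.8% of all genes.

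**Figure D2:**
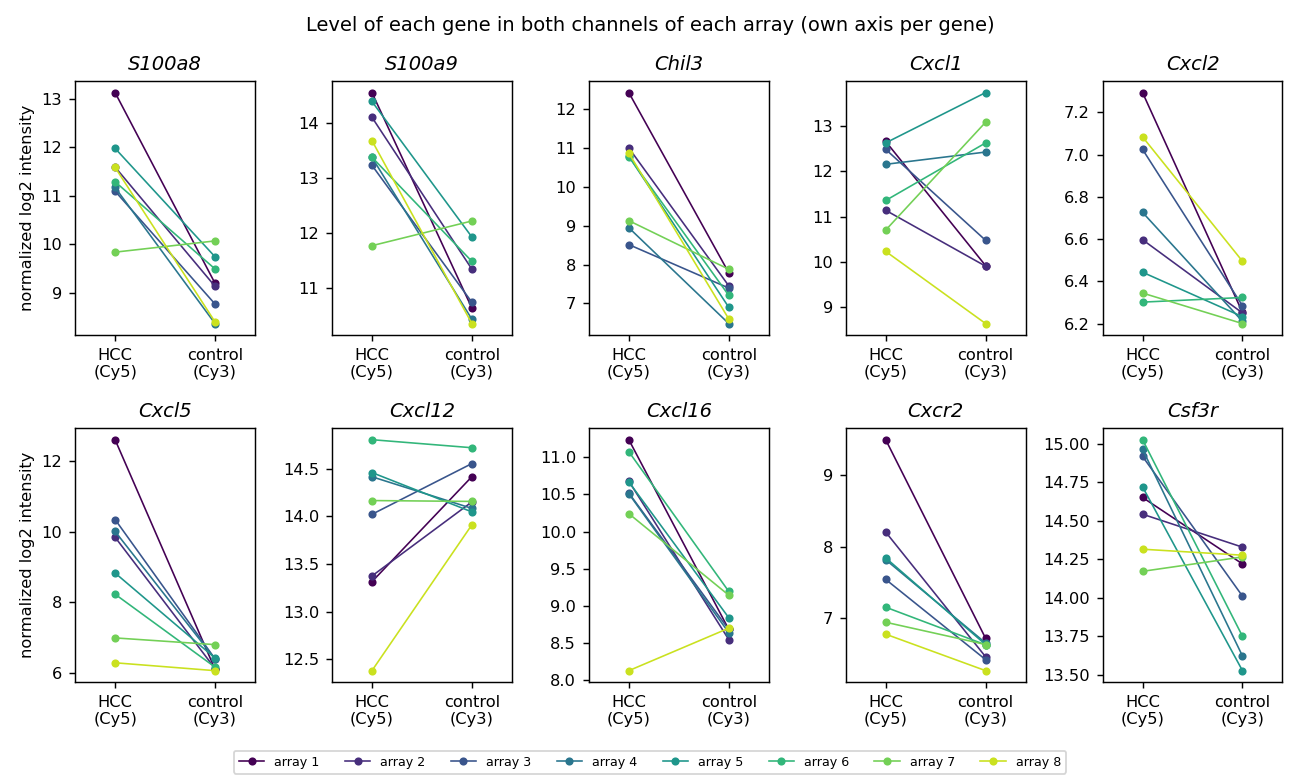
Normalized log2 intensity of each gene is shown for HCC (left, Cy5) and control liver (right, Cy3), with a line joining the channels of 1 array and a separate vertical axis per gene. The lines of S100a8, S100a9 and Chil3 descend to control liver on nearly every array, with array 7 the exception for the S100 genes, while those of Cxcl1 cross because the control livers spanned 8.64 to 13.74.

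Arrays 1 to 4 and 5 to 8 lay in different rows of the slide, each with both groups on every array. In row 1 against row 2, the mean log2 ratio was 2.88 and 1.74 for S100a8, 3.03 and 1.81 for S100a9, and 2.95 and 3.25 for Chil3. It was 4.45 and 1.22 for Cxcl5, 2.10 and 1.06 for Cxcl16, and 1.70 and 0.64 for Cxcr2. Cxcl1 had 1.43 in row 1 and -0.79 in row 2. Called genes among the 10 numbered 6 in row 1 alone and 1, Chil3, in row 2 alone, and over all genes 2560 and 1558. The difference between rows was not tested.

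For 9 pairs, log2 ratios were correlated over the 8 arrays with exact two-sided permutation tests. S100a8 and S100a9 moved almost as 1 measurement, with Pearson r = 0.994 (exact p = 2.48e-05, the smallest these permutations can give; adjusted p = 0.000223) and Spearman rho = 1 (exact adjusted p = 0.000446). Without arrays 1 and 7, the farthest from the S100a8 median, r was 0.988. Centred within rows of the slide, it was 0.993. Ratios centred within rows were still permuted across all 8 arrays, so the p-values of centred ratios are approximate, not exact.

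S100a8 also correlated with Cxcl1, with r = 0.815 (exact p = 0.00508, adjusted p = 0.0155) and rho = 0.833 (exact p = 0.0154, adjusted p = 0.0346). It did not pass without arrays 1 and 7, where r was 0.544 (exact adjusted p = 0.503). Centred within rows it did not pass either, with r = 0.745 (approximate permutation adjusted p = 0.0761). Leaving out the arrays farthest from the S100a8 median narrows its range and leaves fewer arrays, so this cannot show what the relation rested on. Cxcl1 and Cxcl2 gave r = 0.875 (exact p = 0.00516, adjusted p = 0.0155) and rho = 0.952 (exact p = 0.00114, adjusted p = 0.00513). That relation had r = 0.831 without arrays 1 and 7 (exact adjusted p = 0.231) and r = 0.781 within rows (approximate permutation adjusted p = 0.0641). A row holds 4 arrays, too few for a correlation of its own. Ratios of a pair share the RNA of both channels, and levels of Cxcl1 and Cxcl2 gave r = 0.242 over tumors and -0.633 over control livers, as a description.

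S100a8 with Chil3 gave r = 0.669 (exact p = 0.0596, adjusted p = 0.107) and rho = 0.548 (exact p = 0.171). Centred within rows of the slide this pair had r = 0.847 (approximate permutation adjusted p = 0.0240), from which no pass is drawn. Without arrays 1 and 7 it had r = 0.144 (exact adjusted p = 0.961). S100a8 with Csf3r gave r = 0.185 (exact p = 0.707), and without arrays 1 and 7 its sign turned to r = -0.576. The pairs of S100a8 with Cxcr2 (r = 0.675), Cxcl2 (r = 0.723) and Cxcl5 (r = 0.636), and of Cxcl1 with Cxcl5 (r = 0.626), had exact adjusted p-values of 0.111, 0.0919, 0.111 and 0.111. By rank, S100a8 and Cxcl2 passed, with rho = 0.833 (exact p = 0.0154, adjusted p = 0.0346), the same rho as S100a8 and Cxcl1. On arrays 1, 2 and 8 the Csf3r ratios were 0.43, 0.21 and 0.04, where those of S100a8 were 3.93, 2.46 and 3.18. Those of Cxcr2 were 2.77, 1.74 and 0.51 there, so it too was low on array 8.

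**Figure D3:**
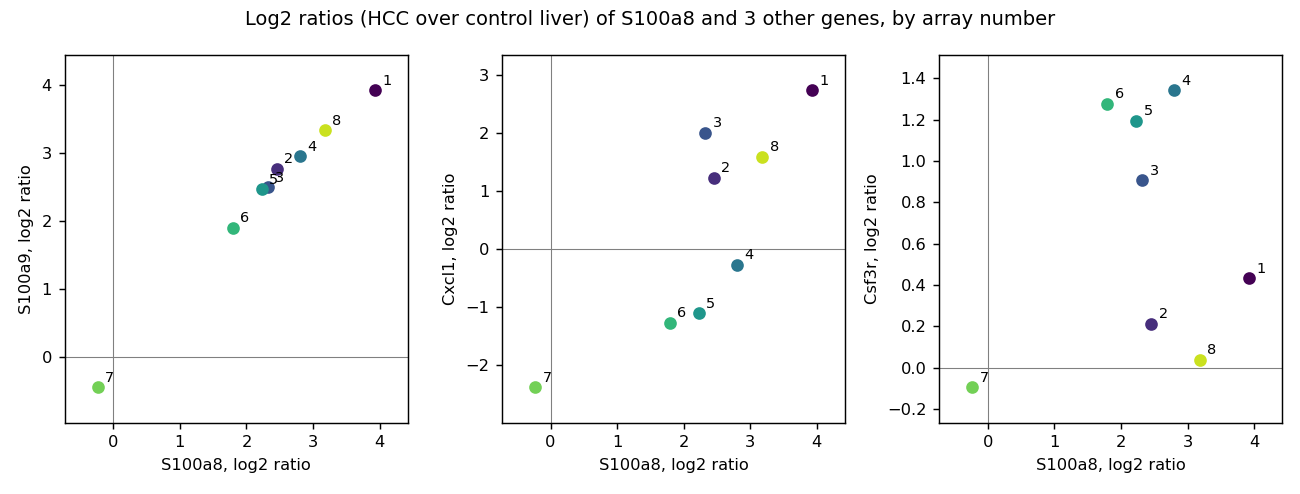
Each panel sets the log2 ratio of S100a8 (horizontal axis) against that of S100a9, Cxcl1 or Csf3r (vertical axis, log2 ratio of HCC over control liver), with points numbered by array. S100a9 follows S100a8 on a line (r = 0.994), Cxcl1 follows it loosely (r = 0.815), and Csf3r does not (r = 0.185).

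The tested gene most like S100a8 across the 8 arrays was S100a9, and the reverse held too (r = 0.994, given as a description). For the others the closest were Secisbp2l for Chil3 (r = 0.964), Rpl9 for Cxcl1 (r = 0.966), Wsb2 for Cxcl2 (r = 0.974) and Zbtb41 for Cxcl5 (r = 0.981). Ehhadh was closest to Cxcl12 (r = 0.978), Lynx1 to Cxcl16 (r = 0.991), Arpc2 to Cxcr2 (r = 0.977) and Mtif2 to Csf3r (r = 0.993). Among 14313 genes and 8 arrays, such values are found for genes of any size of change: Zbtb41 differed by 0.49 ± 0.23 and Secisbp2l by -0.31 ± 0.13 on the log2 scale.

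Other neutrophil genes were mixed. Of 40 listed, 36 were tested, 10 rose and 2 fell, with a median log2 ratio of 0.70 beside 0.03 over all genes. Lcn2, an iron-siderophore-binding granule protein that injured hepatocytes also make, rose by 2.10 ± 0.29 (SD, n = 8, adjusted p = 1.14e-06), on all 8 arrays. Il1r2, the decoy receptor of interleukin-1, rose by 1.95 ± 0.65 (adjusted p = 5.76e-05), and Cybb, the catalytic subunit of the phagocyte oxidase, by 1.53 ± 0.72 (adjusted p = 0.00042). Mmp9, gelatinase B, rose by 1.18 ± 0.69 (adjusted p = 0.00147). Wfdc21 fell by 4.30 on the log2 scale (SD 1.95, adjusted p = 0.000275) and averaged a normalized log2 intensity of 12.35 in HCC and 16.66 in control liver. Which cells gave the Wfdc21 signal was not tested. Fpr1 was the other gene that fell, by 1.01 on the log2 scale (SD 0.36, adjusted p = 0.00016), on all 8 arrays. The remaining 24 were not called.

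The primary-granule genes Mpo and Elane, which neutrophil precursors in the marrow express, did not pass. Mpo, myeloperoxidase, had 0.50 ± 0.93 (adjusted p = 0.166) and was well above background in 4 tumors and 3 control livers. Elane, neutrophil elastase, had 0.04 ± 0.35 (adjusted p = 0.780). Of the later granule proteins, Mmp8, the neutrophil collagenase, had 0.77 ± 0.44 (adjusted p = 0.00179) and Ltf, lactoferrin, 0.95 ± 0.65 (adjusted p = 0.00368), both under 2-fold. Further listed neutrophil genes were split. Retnlg was called, at 2.63-fold higher in HCC (adjusted p = 0.00715). Camp (0.74 ± 1.34, adjusted p = 0.148), Ngp (0.64 ± 0.56, adjusted p = 0.014) and Cd177 (0.28 ± 0.27, adjusted p = 0.0374) were not called. Cd177 was well above background in 4 tumors and 0 control livers. Ly6g, which defines mouse neutrophils, had no named probe and was not analysed here.

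The further CXC ligands rose in 3 of 7 tested cases, with a median of 0.79. Cxcl10, an interferon-induced attractant of T cells, rose by 3.36 ± 1.29 (adjusted p = 0.00011). Cxcl14 rose by 2.12 ± 0.66 (adjusted p = 4.05e-05) and Pf4, the platelet and megakaryocyte chemokine, by 1.75 ± 0.59 (adjusted p = 6.48e-05). Each was higher in HCC on all 8 arrays. Cxcl3, whose ratio was the list median, had 0.79 ± 0.68 (adjusted p = 0.0110) and was not called. It was well above background in 4 tumors and 0 control livers, so it passed the filter through the HCC channel alone. Of the tested platelet genes, Treml1 had 0.52 ± 0.67 and was higher in HCC on all 8 arrays (adjusted p = 0.0596). Gp9 had 0.15 ± 0.95 (adjusted p = 0.695), Gp1bb 0.06 ± 0.18 (adjusted p = 0.554), Itga2b -0.03 ± 0.38 (adjusted p = 0.870) and the platelet chemokine Ppbp 0.07 ± 0.73 (adjusted p = 0.820). The part of platelets in the Pf4 result was not tested.

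Of 7 further CXC receptors, 2 rose and 1 fell. Both receptors of Cxcl12 rose, Ackr3 by 1.65 ± 1.13 (adjusted p = 0.00307) and Cxcr4 by 1.59 ± 0.75 (adjusted p = 0.000413), while Cxcl12 itself did not pass. Ackr1, a chemokine-scavenging receptor of red cells and venular endothelium, fell by 1.34 on the log2 scale (SD 0.59, adjusted p = 0.000325). Cxcr6, the receptor of Cxcl16, had 0.25 ± 0.50 (adjusted p = 0.214). Adam10, the protease that sheds Cxcl16, rose by 1.06 ± 0.45 (adjusted p = 0.000312).

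Among 27 tested cytokines, sensors and NF-kappa-B genes known to induce or process neutrophil attractants, 7 rose and 1 fell, with a median of 0.22. Relb, a subunit of the non-canonical NF-kappa-B pathway, rose by 2.21 ± 0.53 (adjusted p = 9.9e-06). Tlr2, a receptor of bacterial lipoproteins, rose by 1.53 ± 0.71 (adjusted p = 0.00041), the adhesion molecule Vcam1 by 1.33 ± 0.40 (adjusted p = 4.75e-05) and Il1b, interleukin-1 beta, by 1.01 ± 0.65 (adjusted p = 0.00269). The mean of Il1b, at 2.01-fold, lay near the 2-fold limit. Il1rn, the interleukin-1 receptor antagonist, rose by 1.19 ± 0.65 (adjusted p = 0.00105). Dpp4, a protease that trims chemokines, fell by 2.91 on the log2 scale (SD 0.86, adjusted p = 2.62e-05). Csf3, the ligand of Csf3r, was not well above background on any array in either channel.

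**Figure D4:**
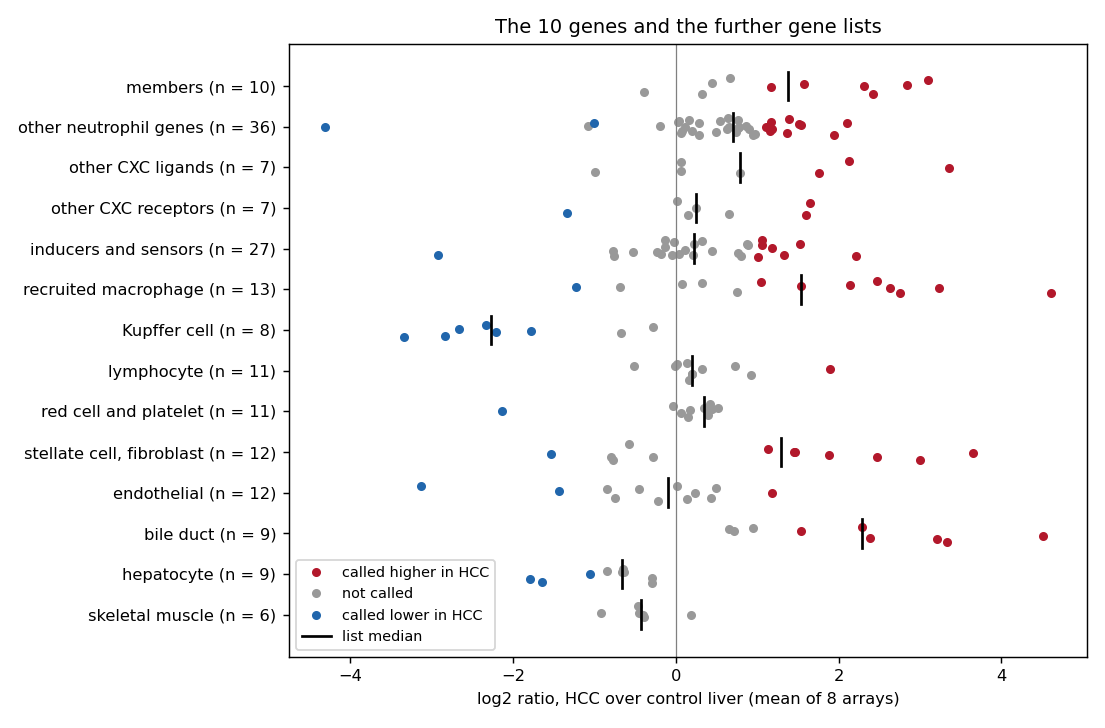
The mean log2 ratio of HCC over control liver over 8 arrays (horizontal axis) is plotted for each tested gene of the 10 described here ("members") and of 13 further lists (vertical axis), red where called higher, blue where called lower and grey where not called, with the list median as a black line. The 10 genes had a median of 1.37 and the other neutrophil genes 0.70, while Kupffer cell genes lay at a median of -2.27.

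Markers of some other cells moved on the same arrays. Of 13 tested genes of recruited macrophages, which also make Chil3, 8 rose and 1 fell, with a median of 1.53. Their summed level on the log2 scale was 16.17 to 17.10 in HCC and 15.68 to 16.29 in control liver. Cd14 rose by 4.61 ± 0.79 (adjusted p = 1.35e-06), Trem2 by 2.75 ± 1.02 (adjusted p = 9.21e-05) and Lgals3 by 2.63 ± 0.83 (adjusted p = 3.84e-05). Cx3cr1 rose by 3.24 ± 1.66 (adjusted p = 0.000578) by its brighter probe and had 1.74 by the other. Mrc1 was the gene that fell, by 1.22 on the log2 scale (SD 0.38, adjusted p = 6.25e-05), on all 8 arrays. The 4 not called were Adgre1 (0.33), Csf1r (0.07), Lyz2 (0.75) and Arg1 (-0.68), so the rise was not shared by all macrophage genes. The part of these cells in the Chil3 and chemokine results was not tested.

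Of 8 Kupffer cell genes, 6 fell, among them the C-type lectin Clec4f (-3.33 ± 1.11, adjusted p = 4.82e-05). Their summed level was 12.94 to 14.72 in HCC and 14.62 to 15.97 in control liver. Bile duct genes, of the epithelium that can express Cxcl5, rose in 6 of 9 cases. The 3 not called were the duct markers Krt19 (0.72, adjusted p = 0.0704), Krt7 (0.65) and Epcam (0.95), while Sox9 rose (1.53). The rise was thus not shared by all duct markers. The summed level of the 9 genes was 13.10 to 16.68 in HCC, with 13.10 on array 8, 13.84 on array 2 and 13.90 on array 7, and 10.99 to 12.82 in control liver. The part of duct cells in the Cxcl5 result was not tested. Stellate cell and fibroblast genes rose in 7 of 12 cases and fell in 1, and endothelial genes rose in 1 of 12 and fell in 2. Lymphocyte genes rose in 1 of 11 cases (Jchain, 1.89 ± 0.68), red cell and platelet genes fell in 1 of 11 (Alas2, -2.14 ± 0.59), and hepatocyte genes fell in 3 of 9. Over all genes tested, 9.54% were called higher and 5.94% lower, so the rises among lymphocyte and endothelial genes lay near the share of all genes. The mean ratio of the red cell and platelet list was -0.09, 0.94, 0.39, -0.52, -0.73, -0.44, -0.19 and 1.20 on arrays 1 to 8, where the S100a8 ratio was 3.93, 2.46, 2.32, 2.80, 2.23, 1.80, -0.23 and 3.18. The part of blood content in the S100a8 and S100a9 results was not tested.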

How the data were processed

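The deposited scanner files give spot median signals and backgrounds as intensity, and processed signals, also intensity, that were background-subtracted and dye-normalized per the file headers. The deposited log10 ratio was not used. Per the submitters' processing notes the scanner software was Agilent Feature Extraction 10.9, and per the file headers version 10.9.1.1 with design build mm9. Median signals were corrected by normexp (offset 50) and loess within arrays, with control and outlier spots at weight 0 and then dropped, and spots of a probe averaged. Channel levels are after loess and Aquantile normalization (limma 3.58.1 in R 4.3.3, with data.table version 1.17.8). Probes were named through their accessions in RefSeq (GRCm38.p6), and 26592 of 55681 had a name. Probes well above background in either channel on 4 or more arrays were tested (29292), and the brightest stood for its gene. The mean log2 ratio of HCC over control liver was tested against 0 with limma (lmFit, eBayes) and Benjamini-Hochberg adjustment over 14313 genes. The number of arrays limits the precision. Errors are SDs over arrays.

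The members, gene lists and tests were chosen with earlier results of these data known. Named genes were the 10 members, up to 4 called genes of each list with the largest ratios, 14 fixed by name, and the genes closest to a member in ratio. Itga2b, Gp9, Gp1bb, Treml1 and Ppbp, markers of platelets, were named after their values were seen. So were Fpr1, Mrc1, Adgre1, Csf1r, Lyz2, Arg1, Krt7, Krt19, Epcam, Sox9, Cxcl3, Retnlg, Camp, Ngp, Cd177 and Il1rn. Fits were checked on simulated data. Alternatives covered background, normalization, filters, probe choice, variance models, array weights, slide rows and arrays left out.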

Additional observations from a re-analysis of the deposited data

Results flagged for a closer look

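Of 79 sets of 8 values examined, 10 held a value far from the rest of its set, where chance gives about 1 in 20 for a single set. The sets share the same 8 arrays, and ratios share values with the levels, so the 10 are not independent events. The S100a9 log2 ratio was -0.45 on array 7 and 1.90 to 3.92 on the others. The control level of Cxcl2 was 6.50 on array 8 and 6.20 to 6.32 on the others.

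The other 8 were low values on array 8, whose tumor gave the dimmest Cy5 signal. Its control liver had skeletal muscle genes at a summed log2 level of 16.13, against 10.27 to 10.64 in the other control livers. Cxcl16 had a log2 ratio of -0.57 against 1.1 to 2.56 on the others, and an HCC level of 8.12 against 10.24 to 11.24. The second probe of Cxcl12 had an HCC level of 9.66 against 11.65 to 13.09. The log2 ratio on array 8 was -0.65 for Cx3cr1 (3.10 to 4.63 on the others), -0.10 for Cybb (1.22 to 2.21), 1.45 for Elf3 (2.29 to 2.77), -0.58 for Lum (1.44 to 3.06) and 1.08 for Spp1 (2.85 to 4.16). What part signal strength, or muscle RNA in the control of array 8, had in the flagged values of that array was not tested.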

How the results depend on the processing

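Of 238 values of the 10 genes under the alternatives, 228 kept their direction and their side of the rule for a call, 7 lost the call, 1 gained it and 2 changed sign. Of the 10 genes, 5 to 7 were called under every alternative except row 2 of the slide alone, which leaves 4 arrays: there 1 was called, with 40 calls in the further lists together against 63 and 849 genes called higher against 1366. In that row S100a8 had an adjusted p = 0.0730, S100a9 0.0871, Cxcl5 0.108, Cxcl16 0.138 and Cxcr2 0.0646, and Cxcl1 turned to -0.79 (adjusted p = 0.402). Leaving out each array in turn gave 5 to 6 called genes of the 10, 62 to 69 in the further lists and 2136 to 2396 over all genes; the Cxcl1 ratio ran from -0.028 without array 1 to 0.704 without array 7. Cxcr2 fell under the 2-fold limit without background subtraction (0.99). The processed signals gave 3540 calls over all genes against 2216, 1531 lower against 850, and 19 further neutrophil genes called against 12, with the log2 ratio of Cxcl5 at 4.78; the cause was not tested. A filter on all 8 arrays removed Cxcl2 and Cxcl5. The sign of r with S100a8 turned without arrays 1 and 7 for Csf3r (-0.576), Cxcr2 (-0.0459) and Cxcl5 (-0.341), and within rows Chil3 gave r = 0.847 (approximate permutation adjusted p = 0.0240). Array weights, the row as a random block (consensus correlation -0.03) and arrays 1 and 2 averaged, which had the most alike control channels, each left 6 called. Leaving out arrays 7 and 8 together and fitting all probes were chosen after seeing the data. The test of each array's ratio is itself the paired comparison of its channels, so there was no separate fit with a replicate block. Dim genes near background (Cxcl2, Cxcl5, Cxcr2) have sizes limited by signal over background.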
